A study of Mus musculus with 6 samples.

Results

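The tumour necrosis factor (TNF) superfamily was examined in macrophages sorted from mouse ear skin by their level of CX3CR1. Members were the genes whose symbol begins with Tnfsf (ligands) or Tnfrsf (receptors), together with Tnf, Lta and Ltb. On the array, 32 of 22180 genes met this rule, 12 ligands and 20 receptors, and each was read by a single probe set. The rule used symbols only and no measured value. Cells came from C57Bl/6 mice aged 2 weeks that carried Cx3cr1+/gfp, in which green fluorescent protein replaces one copy of the gene of the fractalkine receptor. The 3 subsets, CX3CR1high, CX3CR1int (intermediate) and CX3CR1low, had 2 samples each, every sample from 4 pooled mice, and 2 independent litters were used. Strain, genotype, age and tissue were the same in all groups and no treatment was given, so each difference compares sorted subsets of untreated reporter mice.

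Ligands of this superfamily are mostly membrane-bound trimers that can be shed, and their receptors either carry a death domain or bind TRAF adaptors, which lead to NF-kB. Macrophages are a main source of TNF itself, and several other ligands act as costimulators of T cells or as survival factors of B cells. A few receptors are decoys that bind a ligand without signalling.

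The arrays had median log2 signals between 4.84 and 4.94. Precision is limited by having 2 arrays in each subset. The macrophage markers were present in all samples, with Adgre1, which encodes F4/80, at 10.63 to 10.95 and Cd68 at 12.07 to 12.33, and of 9 such markers tested none was called between any subsets. Cx3cr1 itself had log2 signals of 10.55 and 9.51 in CX3CR1high, 7.05 and 6.84 in CX3CR1int and 5.87 and 7.01 in CX3CR1low samples. The CX3CR1int and CX3CR1low samples overlapped, so that only the CX3CR1high samples stood apart in the transcript of the sorting marker. Replicates 1 and 2 differed in sex composition in every subset: the female transcript Xist lay at 7.39 to 7.97 in replicates 1 and at 10.99 to 11.39 in replicates 2. The samples came as pools of mice, so p-values rest on the spread between pooled samples, moderated by that of all genes, and not on that between mice. Without a term for the replicate, this spread includes the difference in sex composition. A model with a term for the replicate number, called the replicate block below, was therefore run beside each test.

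A gene counted as dim when its mean over the 6 samples lay below 4.335 on the log2 scale, the 30th percentile of all genes, and dim genes were not tested. The dim members were the ligand genes Tnfsf8 (CD30 ligand), Tnfsf10 (TRAIL, which triggers death receptors) and Tnfsf11 (RANKL, which drives osteoclast formation), and the receptor gene Tnfrsf13b (TACI, a receptor of B-cell survival factors). Their means were 3.625, 3.927, 3.825 and 4.178 log2 units. The other 28 members, 9 ligands and 19 receptors, entered the tests. Of these, 20 also lay above 5.166, the level below which 95% of 1105 olfactory receptor genes fell, and 8 lay between that level and the dim line: Lta, Tnfsf4, Tnfsf14, Tnfrsf8, Tnfrsf10b, Tnfrsf14, Tnfrsf18 and Tnfrsf19. Signals of different genes come from different probes and are not compared with each other. Tnfsf12 and Tnfsf13 share probe sets with other symbols and were not analysed here.

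**Figure D1:**
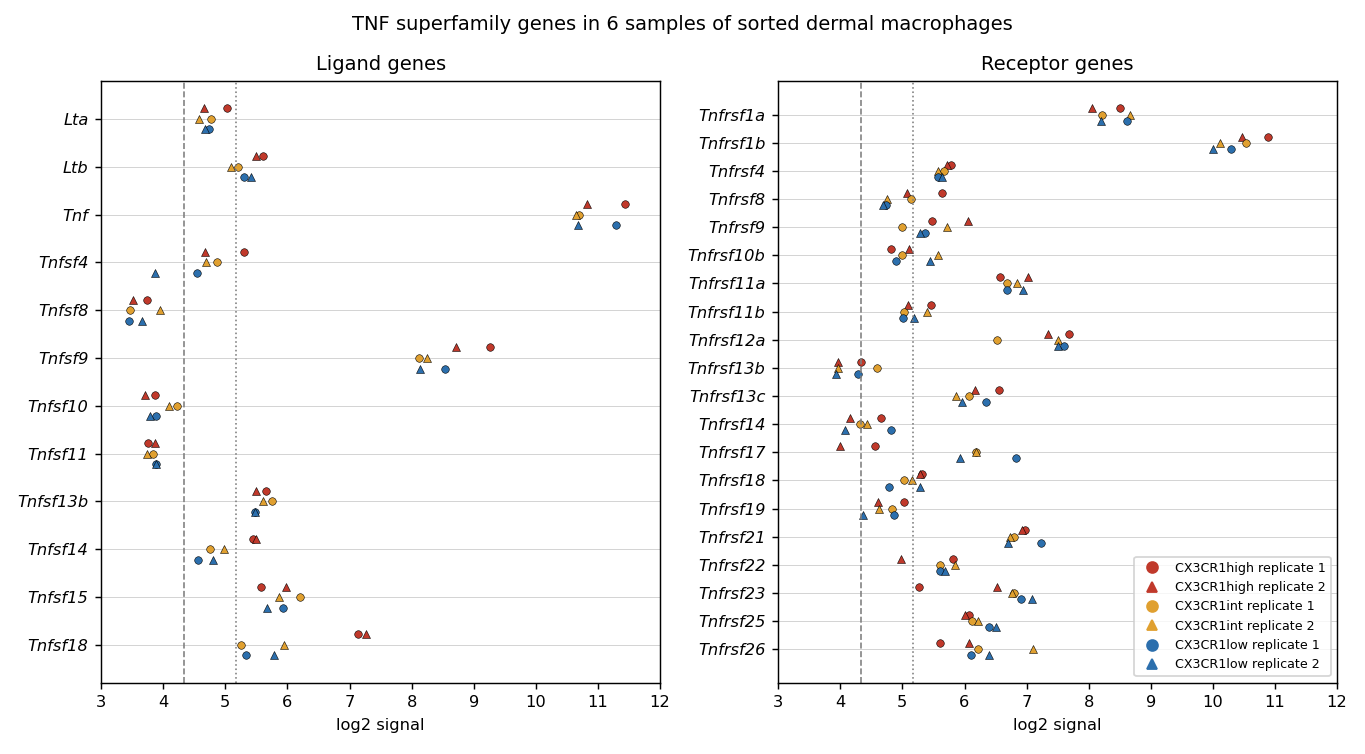
Log2 signal (x axis) of the 12 ligand and 20 receptor genes in each of the 6 samples, with colour for the subset and shape for the replicate. The dashed line is the dim line at 4.335 and the dotted line lies at 5.166; Tnfsf8, Tnfsf10 and Tnfsf11 stay left of the dashed line in all 6 samples, and Tnfsf18 and Tnfrsf17 show the CX3CR1high samples apart from the other 4.

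Between CX3CR1high and CX3CR1low cells the ligand gene Tnfsf18 rose and the receptor gene Tnfrsf17 fell, and no other member was called. These were 2 of 28 members tested (7.14%), 1 in each direction, while 0.399% of all 15529 genes were called in this comparison. With the replicate block the same 2 were called, against 0.992% of all genes. Calls are adjusted p below 0.05 in limma's moderated test with Benjamini-Hochberg adjustment over all genes. At an unadjusted p below 0.05, 6 members were higher and 3 lower, 32.1% of those tested, against 9.65% of all genes. The median log2 difference of the members was 0.14, against 0.005 over all genes. In a bulk sample, fewer cells of a type and less RNA per cell cannot be told apart.

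Tnfsf18 encodes the ligand of GITR, a costimulatory receptor of T cells, and is known from antigen-presenting and endothelial cells. Its log2 signals were 7.13 and 7.27 in CX3CR1high, 5.25 and 5.95 in CX3CR1int and 5.33 and 5.78 in CX3CR1low samples. Both CX3CR1high samples lay above the other 4, and the CX3CR1int and CX3CR1low samples overlapped. It was 3.13-fold higher in CX3CR1high than in CX3CR1low cells (log2 difference 1.645 ± 0.260, SE, n = 2 per subset, limma adjusted p = 0.0431, and 0.00995 with the replicate block). Its receptor gene Tnfrsf18 (GITR) had signals of 5.31 and 5.29 in CX3CR1high, against 4.79 and 5.28 in CX3CR1low samples, a difference of 0.265 with a 95% interval of -0.19 to 0.72. The call of Tnfsf18 was lost without either CX3CR1low sample (limma adjusted p = 0.164 without replicate 1 and 0.0936 without replicate 2) and without either CX3CR1high sample (0.233 and 0.261). It was also lost with each array centred on its median (0.0633).

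Tnfrsf17 encodes BCMA, a receptor best known from plasma cells, where it binds the survival factors BAFF and APRIL. Its log2 signals were 4.56 and 4.00 in CX3CR1high, 6.18 and 6.19 in CX3CR1int and 6.83 and 5.93 in CX3CR1low samples. The CX3CR1high samples lay below all others, one of them under the dim line, and the CX3CR1int signals lay within the range of the CX3CR1low ones. The log2 difference between CX3CR1high and CX3CR1low cells was -2.10 ± 0.30 (SE, n = 2 per subset, limma adjusted p = 0.0370, and 0.00698 with the replicate block). Against the dim line the fall was at least 4.13-fold, a bound that makes no allowance for the spread between samples. The call held without the CX3CR1low replicate 2. It was lost without the CX3CR1low replicate 1 (limma adjusted p = 0.0972), either CX3CR1int sample (0.0861 and 0.0836) or either CX3CR1high sample (0.158 and 0.206), and also when only the CX3CR1high and CX3CR1low samples were fitted (0.0840).

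**Figure D2:**
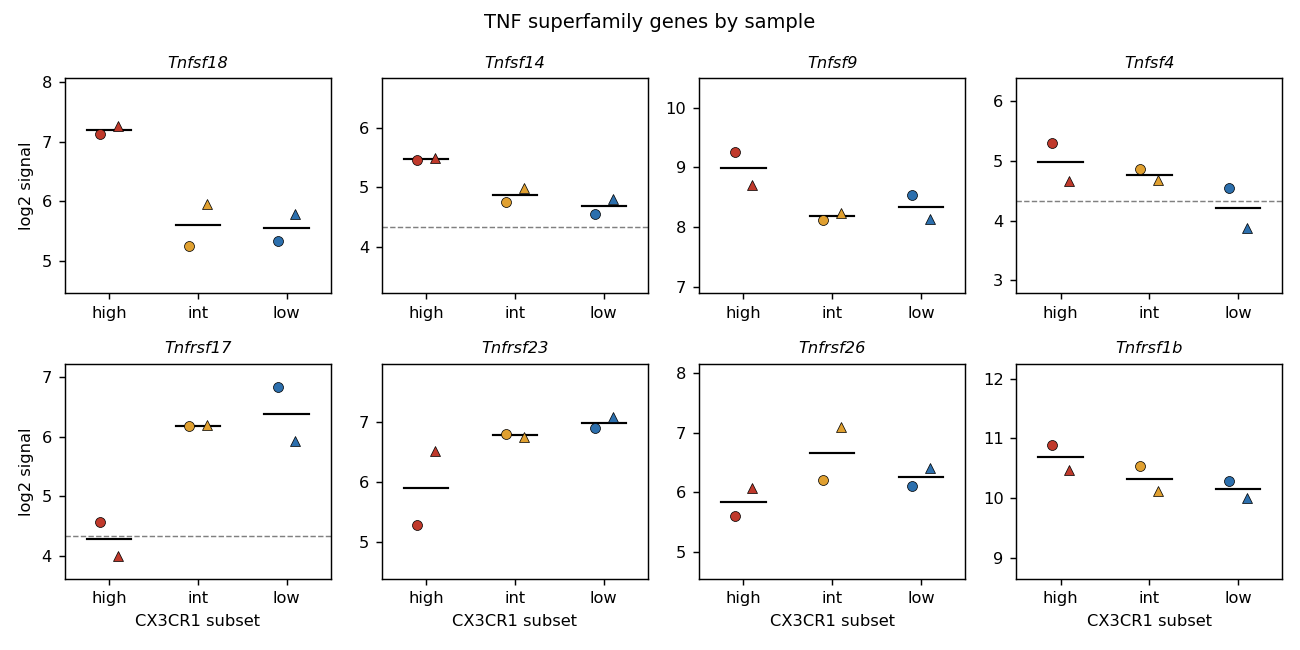
Log2 signal (y axis, each panel spanning the same number of log2 units) of 8 members by subset (x axis), with circles for replicate 1, triangles for replicate 2, bars for the mean of 2 samples and a dashed dim line. The CX3CR1high samples stand above the other 4 for Tnfsf18, Tnfsf14 and Tnfsf9 and below them for Tnfrsf17, Tnfrsf23 and Tnfrsf26. Those of Tnfrsf23 also lie far apart from each other, at 5.27 and 6.52.

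Markers of other cells moved with Tnfrsf17. Of 7 mast cell markers on the array, 5 were tested, and the protease genes Cpa3, Mcpt4 and Cma1 were called lower in CX3CR1high than in CX3CR1low cells. All 5 were lower at an unadjusted p below 0.05. Over all genes 0.399% were called in this comparison, and 9.65% had such an unadjusted p-value, in either direction. The mean log2 signal of the mast cell list was 4.30 and 4.23 in CX3CR1high, 5.14 and 5.07 in CX3CR1int and 5.68 and 5.34 in CX3CR1low samples. Cpa3 had signals of 3.82 and 4.32 in CX3CR1high, 6.41 and 6.51 in CX3CR1int and 7.80 and 7.08 in CX3CR1low samples. The mast cell receptor genes Fcer1a and Ms4a2 were dim in all subsets.

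Ly6c2, a marker of monocytes, was at 3.36 and 4.92 in CX3CR1high, 7.35 and 7.90 in CX3CR1int and 6.48 and 7.11 in CX3CR1low samples, and was called lower against CX3CR1int cells (limma adjusted p = 0.0421) and, with the replicate block, against CX3CR1low cells (0.00484). The other monocyte genes did not share this pattern throughout. Ccr2, the receptor for monocyte-attracting chemokines, was at 7.92 and 7.26 in CX3CR1high, 6.99 and 7.05 in CX3CR1int and 5.56 and 7.15 in CX3CR1low samples, with both CX3CR1high samples above the other 4 and no call. Of the 4 monocyte genes tested, 2 were higher and 2 lower in CX3CR1high than in CX3CR1low cells in direction. The mean of the list of 5 genes was 5.06 and 5.36 in CX3CR1high, 6.03 and 6.77 in CX3CR1int and 5.16 and 6.34 in CX3CR1low samples. Of the 9 markers of B and plasma cells on the array, Jchain, Ms4a1, Cd79a and Blk were dim. Jchain was at 2.69 to 3.02 in all samples, while Blk, with a mean of 4.333, lay just under the dim line. The other 5 (Cd79b, Pax5, Sdc1, Mzb1 and Xbp1) were tested and none was called. The mean of the list was 5.07 and 4.99 in CX3CR1high, 5.07 and 4.96 in CX3CR1int and 5.12 and 5.01 in CX3CR1low samples. Among them Sdc1, which encodes the plasma cell marker syndecan-1 and is also expressed by epithelial cells, was at 5.84 and 6.89 in CX3CR1high, 7.11 and 6.93 in CX3CR1int and 6.81 and 7.74 in CX3CR1low samples. Its difference was -0.91 against CX3CR1low (95% interval -1.76 to -0.06, limma adjusted p = 0.488, and 0.25 with the replicate block) and -0.655 against CX3CR1int cells (-1.51 to 0.20), where the samples did not overlap. Keratinocyte and fibroblast markers, given below, were also mostly lower in CX3CR1high than in CX3CR1low cells. The part of RNA from mast cells, monocytes, plasma cells, keratinocytes and fibroblasts in the fall of Tnfrsf17 was not tested.

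**Figure D3:**
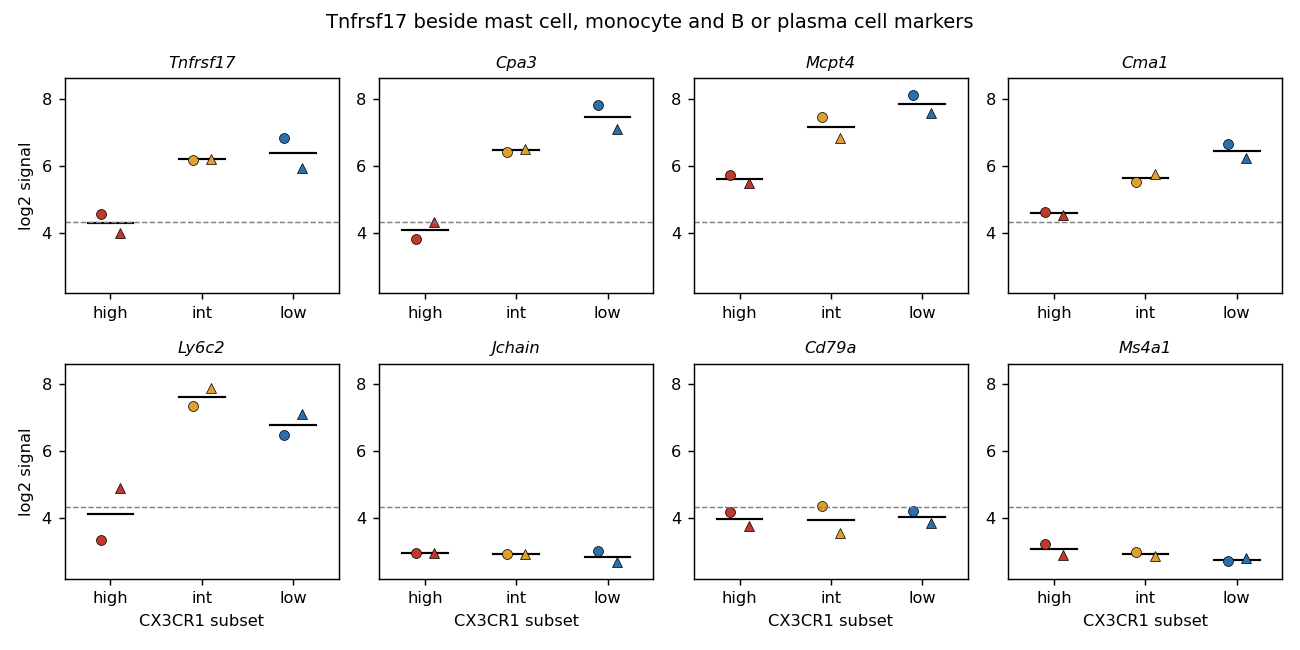
Log2 signal (y axis, the same in all panels) by subset (x axis) of Tnfrsf17, the mast cell genes Cpa3, Mcpt4 and Cma1, the monocyte gene Ly6c2 and the B or plasma cell genes Jchain, Cd79a and Ms4a1. Circles are replicate 1, triangles replicate 2, bars the mean of 2 samples and the dashed line the dim line. The 3 mast cell genes and Ly6c2 are lowest in the CX3CR1high samples, as Tnfrsf17 is. The B or plasma cell genes shown are near or below the dim line in every subset. Not shown are the other monocyte genes, of which Ccr2 was higher in both CX3CR1high samples than in all others. The tested B and plasma cell genes are also not shown, among them Sdc1, whose mean was lowest in CX3CR1high cells.

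Beside Tnfsf18, the mean levels of the keratinocyte and fibroblast lists were lower in CX3CR1high than in CX3CR1low cells, and that of the dendritic and Langerhans cell list was higher. The mean log2 signal of 9 keratinocyte markers was 6.70 and 6.83 in CX3CR1high, 6.75 and 7.02 in CX3CR1int and 7.21 and 7.68 in CX3CR1low samples. The suprabasal keratin gene Krt10 was the single call without the replicate block, a fall in CX3CR1high cells (limma adjusted p = 0.0439). The means of 9 fibroblast markers were 6.65 and 6.66 in CX3CR1high, 6.88 and 7.02 in CX3CR1int and 7.23 and 7.69 in CX3CR1low samples. Of these, 5 were called lower against CX3CR1low cells with the replicate block and 0 without it (7 lower at an unadjusted p below 0.05). Over all genes 0.992% were called with the block, and 9.65% had such an unadjusted p-value without it, in either direction. Of 8 dendritic and Langerhans cell markers the mean was 5.51 and 5.48 in CX3CR1high, 5.33 and 5.37 in CX3CR1int and 5.12 and 5.21 in CX3CR1low samples. Among them the migration receptor gene Ccr7 was called higher with the replicate block (limma adjusted p = 0.0239, and 0.0510 without it), and the langerin gene Cd207 was at 7.57 and 8.07 in CX3CR1high, 6.00 and 6.85 in CX3CR1int and 6.72 and 6.48 in CX3CR1low samples. Of the 7 tested, 5 were higher and 2 lower in direction. Zbtb46, a transcription factor of conventional dendritic cells, was at 5.55 and 5.44 in CX3CR1high, against 5.82 and 6.02 in CX3CR1low samples, without overlap (-0.425, limma adjusted p = 0.50), and Epcam, a Langerhans cell and epithelial adhesion gene, differed by -0.16 (0.901). Endothelial cells can also make GITR ligand, and the means of 8 endothelial markers were 4.84 and 4.66 in CX3CR1high, 4.69 and 4.86 in CX3CR1int and 4.88 and 5.14 in CX3CR1low samples. The part of these cells in the rise of Tnfsf18 was not tested.

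Promoter sequences of the called members are shown beside that of Tnf, which was not called in any comparison. The windows run from 250 bases before to 50 bases after the gene start and were taken from RefSeq, build GRCm38.p6, in which 26 of the 32 members had one or more, 30 windows in all. Capitals mark matches, on either strand, to 4 motifs. The TATA-type motif was TATAAA. The kappaB-type motif was GGG and CC with any 5 bases between, the AP-1-type motif was TGANTCA and the PU.1-type motif was GAGGAAGT.
Tnfsf18, chr1:161494407-161494706, plus strand: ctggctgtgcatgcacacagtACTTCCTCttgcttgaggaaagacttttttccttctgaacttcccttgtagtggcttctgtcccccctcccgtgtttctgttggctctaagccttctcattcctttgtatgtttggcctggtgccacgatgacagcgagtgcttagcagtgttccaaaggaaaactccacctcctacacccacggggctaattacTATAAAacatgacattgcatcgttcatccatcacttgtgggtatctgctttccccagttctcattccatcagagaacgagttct
Tnfrsf17, chr16:11313559-11313858, plus strand: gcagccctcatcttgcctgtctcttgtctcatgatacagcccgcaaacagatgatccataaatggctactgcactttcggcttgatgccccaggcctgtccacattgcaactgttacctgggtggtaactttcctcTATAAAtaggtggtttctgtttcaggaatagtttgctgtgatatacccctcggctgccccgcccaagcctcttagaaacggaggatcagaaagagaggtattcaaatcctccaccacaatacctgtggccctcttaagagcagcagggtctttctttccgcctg
Tnf, chr17:35201958-35202257, minus strand: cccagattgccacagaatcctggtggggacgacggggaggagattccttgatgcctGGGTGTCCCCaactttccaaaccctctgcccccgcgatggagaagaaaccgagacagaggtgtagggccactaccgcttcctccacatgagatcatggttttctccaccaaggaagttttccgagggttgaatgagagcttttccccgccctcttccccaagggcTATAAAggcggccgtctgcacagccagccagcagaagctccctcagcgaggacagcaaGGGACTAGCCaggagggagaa

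All 3 windows hold TATAAA, starting at base 217 of the window in Tnfsf18, 137 in Tnfrsf17 and 222 in Tnf, counted from 1 at the 5′ end. The match starts 34 bases before the gene start in Tnfsf18 and 29 in Tnf, but 114 in Tnfrsf17. This motif was found in 6 of the 30 member windows (20.0%), against 13.6% of all 32851 promoter windows. The kappaB-type motif matched 2 times in the Tnf window and not in the windows of Tnfsf18 and Tnfrsf17. It was found in 17 member windows (56.7%), against 50.8% of all windows, and is thus common in windows of this length. The PU.1-type motif, which lies on the opposite strand in Tnfsf18, was in 1 member window (3.33%), against 3.20% of all windows, and the AP-1-type motif in 5 (16.7%), against 7.81%. None of the 4 motifs overlapped another in the printed windows. A match describes letters only.

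Among the other ligands, Tnfsf14, Tnfsf9 and Tnfsf4 had the next lowest p-values between CX3CR1high and CX3CR1low cells, and none passed. Tnfsf14 encodes LIGHT, which binds the herpesvirus entry mediator and the lymphotoxin-beta receptor. Its signals were 5.45 and 5.49 in CX3CR1high, 4.75 and 4.98 in CX3CR1int and 4.56 and 4.80 in CX3CR1low samples, with both CX3CR1high samples above the other 4. The difference from CX3CR1low cells was 0.79 ± 0.178 (SE, n = 2 per subset, limma adjusted p = 0.156, and 0.0889 with the replicate block).

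Tnfsf9 encodes the ligand of the costimulator CD137. Its signals were 9.26 and 8.71 in CX3CR1high, 8.12 and 8.24 in CX3CR1int and 8.53 and 8.14 in CX3CR1low samples. Both CX3CR1high samples lay above the others, and the CX3CR1int and CX3CR1low samples overlapped. The difference was 0.65 (95% interval 0.14 to 1.16) against CX3CR1low and 0.805 (0.29 to 1.32) against CX3CR1int cells, with limma adjusted p-values of 0.376 and 0.378. Its receptor gene Tnfrsf9 (CD137) was at 5.48 and 6.06 in CX3CR1high, 4.99 and 5.72 in CX3CR1int and 5.37 and 5.28 in CX3CR1low samples.

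Tnfsf4 encodes the ligand of OX40, another costimulator of T cells, and is the genomic neighbour of Tnfsf18 on chromosome 1. It was at 5.30 and 4.67 in CX3CR1high, 4.86 and 4.68 in CX3CR1int and 4.55 and 3.87 in CX3CR1low samples, so that its signals lay near the dim line. The difference between CX3CR1high and CX3CR1low cells was 0.775 (95% interval 0.15 to 1.4, limma adjusted p = 0.392). The OX40 receptor gene Tnfrsf4 ranged from 5.58 to 5.79 over the 6 samples, with a difference of 0.145 (-0.23 to 0.52).

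Tnf, the founding inflammatory cytokine of the family, had signals of 11.44 and 10.83 in CX3CR1high, 10.70 and 10.65 in CX3CR1int and 11.29 and 10.68 in CX3CR1low samples. The spread within a subset covered the difference between CX3CR1high and CX3CR1low cells, which was 0.15 ± 0.236 (SE, n = 2 per subset, limma adjusted p = 0.904, 95% interval -0.39 to 0.69). Both CX3CR1high samples lay above both CX3CR1int samples, with a difference of 0.46 (-0.08 to 1) that was not called. It was 0.155 without the CX3CR1high replicate 1 and 0.765 without replicate 2. Its neighbours on chromosome 17, Lta and Ltb, encode the lymphotoxins. Lta ranged from 4.58 to 5.02 over all samples. Ltb was at 5.6 and 5.5 in CX3CR1high, 5.20 and 5.09 in CX3CR1int and 5.30 and 5.42 in CX3CR1low samples, with no overlap between subsets. Ltb differed by 0.405 between CX3CR1high and CX3CR1int cells (0.03 to 0.78, limma adjusted p = 0.580).

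The last ligands tested were the B-cell survival factor gene Tnfsf13b (BAFF) and Tnfsf15 (TL1A, the ligand of death receptor DR3). Tnfsf13b stayed between 5.47 and 5.75 in all samples, with a difference of 0.10 between CX3CR1high and CX3CR1low cells (95% interval -0.29 to 0.49). Tnfsf15 ranged from 5.58 to 6.2, with a difference of -0.025 (-0.51 to 0.46). Neither was called.

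The receptors of TNF were measured in every sample. Tnfrsf1a, the widely expressed receptor with a death domain, was at 8.5 and 8.06 in CX3CR1high, 8.22 and 8.67 in CX3CR1int and 8.62 and 8.20 in CX3CR1low samples, and the groups overlapped. Its difference between CX3CR1high and CX3CR1low cells was -0.13 (95% interval -0.67 to 0.41, limma adjusted p = 0.920). Tnfrsf1b, the receptor found mainly on immune and endothelial cells, was at 10.89 and 10.47 in CX3CR1high, 10.53 and 10.12 in CX3CR1int and 10.29 and 10 in CX3CR1low samples. Replicate 1 was above replicate 2 in each subset, and both CX3CR1high samples lay above both CX3CR1low samples. The difference was 0.535 ± 0.200 (SE, n = 2 per subset, limma adjusted p = 0.426, and 0.122 with the replicate block).

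On chromosome 7 lie the neighbouring genes Tnfrsf26, Tnfrsf22 and Tnfrsf23, of which the last 2 encode mouse decoy receptors of TRAIL. They are close relatives, and how far their probes tell them apart was not tested. Tnfrsf23 was at 5.27 and 6.52 in CX3CR1high, 6.80 and 6.76 in CX3CR1int and 6.91 and 7.08 in CX3CR1low samples. Both CX3CR1high samples were the lowest, but they differed from each other by more than the samples of either other subset did. The difference from CX3CR1low cells was -1.10 (95% interval -1.88 to -0.32, limma adjusted p = 0.320), and it was -0.475 without the CX3CR1high replicate 1 and -1.725 without replicate 2. Tnfrsf26 was at 5.60 and 6.08 in CX3CR1high, 6.21 and 7.10 in CX3CR1int and 6.10 and 6.40 in CX3CR1low samples, and differed by -0.815 (-1.50 to -0.13, limma adjusted p = 0.528) between CX3CR1high and CX3CR1int cells. Tnfrsf22 ranged from 4.98 to 5.85 and overlapped between all subsets. The TRAIL death receptor gene Tnfrsf10b ranged from 4.81 to 5.57 and overlapped too.

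Of the receptors that bind B-cell survival factors, Tnfrsf17 alone was called. Tnfrsf13c, the BAFF receptor, was at 6.55 and 6.17 in CX3CR1high, 6.08 and 5.86 in CX3CR1int and 6.34 and 5.96 in CX3CR1low samples, with overlap between CX3CR1high and CX3CR1low samples and a difference of 0.21 (95% interval -0.28 to 0.70). Tnfrsf13b, the third of them, was dim.

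Among the remaining receptors, Tnfrsf8 (CD30) and Tnfrsf25 (DR3) had an unadjusted p below 0.05 between CX3CR1high and CX3CR1low cells. Tnfrsf8 was at 5.64 and 5.07 in CX3CR1high, 5.14 and 4.75 in CX3CR1int and 4.74 and 4.68 in CX3CR1low samples, a difference from CX3CR1low cells of 0.645 (95% interval 0.12 to 1.17, limma adjusted p = 0.392). Tnfrsf25 was at 6.07 and 6.00 in CX3CR1high, 6.12 and 6.22 in CX3CR1int and 6.40 and 6.50 in CX3CR1low samples, a difference of -0.415 (-0.80 to -0.03, limma adjusted p = 0.483). The 3 subsets did not overlap for Tnfrsf25, which was lowest in CX3CR1high cells.

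Tnfrsf12a, the receptor of TWEAK, was at 7.68 and 7.35 in CX3CR1high, 6.52 and 7.50 in CX3CR1int and 7.61 and 7.51 in CX3CR1low samples, and a single CX3CR1int sample was low. Tnfrsf11a, which encodes RANK, the receptor through which RANKL drives osteoclasts, ranged from 6.57 to 7.02, with a difference of -0.02 (95% interval -0.50 to 0.46) between CX3CR1high and CX3CR1low cells. Tnfrsf11b, the secreted decoy osteoprotegerin, ranged from 5.01 to 5.46. Tnfrsf21 (death receptor DR6) ranged from 6.70 to 7.23, Tnfrsf14 (the herpesvirus entry mediator) from 4.07 to 4.81 and Tnfrsf19 (TROY) from 4.36 to 5.02. None of these was called.

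Against CX3CR1int cells, Tnfsf18 and Tnfrsf17 again had the lowest p-values in CX3CR1high cells, but 0 of 28 members were called by limma, while 0.142% of all genes were called. At an unadjusted p below 0.05 there were 7 members, 4 higher and 3 lower (25%, against 7.89% of all genes). Tnfsf18 differed by 1.60 ± 0.260 (SE, n = 2 per subset, limma adjusted p = 0.0871) and Tnfrsf17 by -1.905 ± 0.30 (limma adjusted p = 0.0800), a difference of at least 3.61-fold against the dim line, since the CX3CR1high mean of Tnfrsf17 was dim. Tnfsf14 differed by 0.605 ± 0.178 (limma adjusted p = 0.397) and Tnfrsf23 by -0.885 ± 0.344 (0.558). With the replicate block both were called, Tnfsf18 higher and Tnfrsf17 lower (limma adjusted p = 0.0254 each), which made 2 of 28 members against 0.303% of all genes. Tnfrsf17 was also called when the CX3CR1low samples were left out singly (0.0412 without replicate 1 and 0.0413 without replicate 2) or together (0.0410). This comparison and that with CX3CR1low cells share the CX3CR1high samples and are not independent.

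Between CX3CR1int and CX3CR1low cells limma called 0 of 28 members, and 0.00644% of all genes were called; with the replicate block the count was 0 of 28, against 0% of all genes. No member had an unadjusted p below 0.05, against 4.89% of all genes, and with the replicate block 1 had, Tnfsf4, against 6.08% of all genes. The lowest p-values were those of Tnfsf4 (0.56, 95% interval -0.06 to 1.18) and Tnfrsf12a (-0.55, -1.23 to 0.13). Single samples moved both: Tnfsf4 differed by 0.90 without the CX3CR1low replicate 1 and by 0.22 without replicate 2, and Tnfrsf12a by -0.06 without the CX3CR1int replicate 1 and by -1.04 without replicate 2. The next were Tnfrsf25 (-0.28 ± 0.169, SE, -0.66 to 0.10), Tnfrsf26 (0.405 ± 0.301, -0.28 to 1.09), Tnf (-0.31 ± 0.236, -0.85 to 0.23) and Ltb (-0.215 ± 0.167, -0.59 to 0.16), and the limma adjusted p of all 6 was 0.996. The differences of the members called above were 0.045 for Tnfsf18 (-0.55 to 0.64) and -0.195 for Tnfrsf17 (-0.88 to 0.49). With 2 samples per subset these intervals give the precision of each difference and are not a limit of detection. Larger differences between CX3CR1high and CX3CR1int cells, 1.60 for Tnfsf18 and -1.905 for Tnfrsf17, were not called from all 6 samples without the replicate block.

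**Figure D4:**
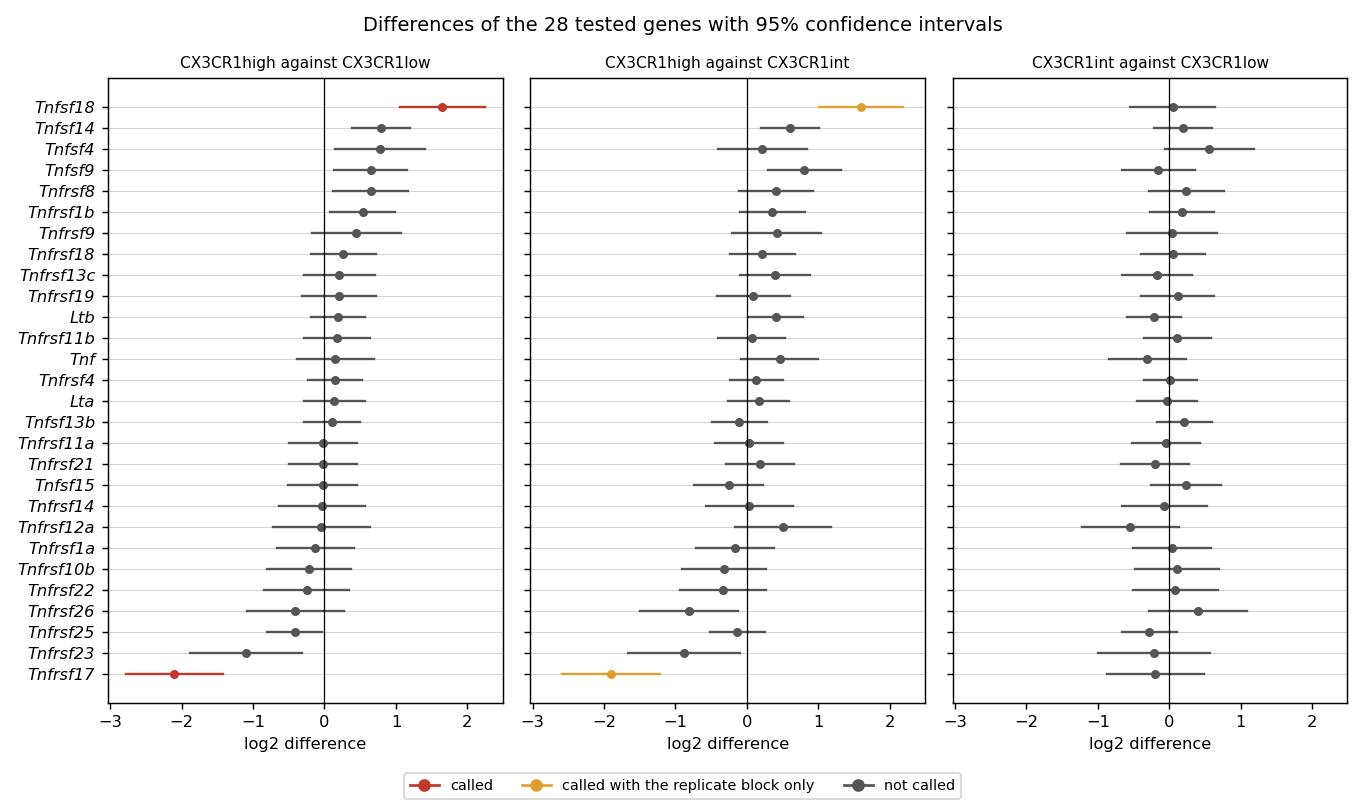
Log2 difference (x axis) with its 95% confidence interval for the 28 tested members (y axis, ordered by the difference between CX3CR1high and CX3CR1low cells) in the 3 comparisons, red for called, amber for called with the replicate block only and grey for not called. Tnfsf18 and Tnfrsf17 lie at opposite ends in both comparisons with CX3CR1high cells, at 1.645 and -2.10 and at 1.60 and -1.905, and near 0 between CX3CR1int and CX3CR1low cells.

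A test over the 3 subsets at once, limma's moderated F test, called 0 of 28 members (0.187% of all genes were called). The lowest adjusted p-values of this test were 0.0555 for Tnfrsf17 and 0.0682 for Tnfsf18. With the replicate block both Tnfrsf17 and Tnfsf18 were called (adjusted p = 0.0115 and 0.0154), against 0.509% of all genes.

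Between CX3CR1high and CX3CR1low cells both samples of CX3CR1high lay above both of CX3CR1low for 11 of 28 members (39.3%, against 19.8% of all genes) and below them for 4 (14.3%, against 18.4%). Against CX3CR1int cells 9 members lay above (32.1%, against 18.3%) and 4 below (14.3%, against 18.5%). Between CX3CR1int and CX3CR1low cells 3 lay above (10.7%, against 16.6%) and 4 below (14.3%, against 14.8%). The shares of members were above those of all genes in the higher direction of both comparisons with CX3CR1high cells, and below them in the other 4 counts. With 2 samples per subset such separation is common, as the shares over all genes show. The replicates also ran in parallel: 13 of 28 members (46.4%) had the same replicate higher in all 3 subsets, replicate 1 for 8 of them and replicate 2 for 5, against 28.5% of all genes. Tnf, Tnfrsf1b and Tnfsf4 were among those higher in replicate 1, and Tnfsf18 and Tnfsf14 among those higher in replicate 2.

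The rest of the pathway was read from lists written down with earlier results of these data known. The 4 ligands of the superfamily under other symbols, Cd40lg, Fasl, Cd70 and Eda, were all dim, with means of 3.195, 3.940, 3.303 and 3.630. Of 8 receptors under other symbols 7 were tested and 0 were called by limma between CX3CR1high and CX3CR1low cells. At an unadjusted p below 0.05, 1 was higher, against 9.65% of all genes in either direction. All 7 were higher in direction in that comparison, with a median difference of 0.27, against 0.005 over all genes. Fas, a death receptor, was at 8.45 and 8.57 in CX3CR1high, 8.22 and 8.21 in CX3CR1int and 8.18 and 8.11 in CX3CR1low samples. Cd40, the costimulatory receptor of antigen-presenting cells, was at 7.81 and 7.36 in CX3CR1high, 7.03 and 7.11 in CX3CR1int and 7.33 and 7.08 in CX3CR1low samples.

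Downstream, none of 25 tested adaptor and kinase genes and none of 14 NF-kB subunit and inhibitor genes was called by limma in any comparison, with or without the replicate block. Between CX3CR1high and CX3CR1low cells 2 of the 25 adaptor genes and 3 of the 14 NF-kB genes were higher at an unadjusted p below 0.05, and 0 were lower. Over all genes 9.65% had such a p-value in this comparison, in either direction. The medians were 0.02 and 0.185. Traf1, an adaptor induced by NF-kB, was at 8.31 and 8.06 in CX3CR1high, 7.72 and 7.61 in CX3CR1int and 7.12 and 7.88 in CX3CR1low samples. Tnip1, which binds and aids the NF-kB inhibitor A20, was at 7.99 and 7.90 in CX3CR1high, 7.56 and 7.30 in CX3CR1int and 7.35 and 6.92 in CX3CR1low samples (difference from CX3CR1low 0.81, limma adjusted p = 0.203). The A20 gene Tnfaip3 was at 9.93 and 9.74 in CX3CR1high, 9.49 and 9.36 in CX3CR1int and 9.42 and 9.49 in CX3CR1low samples, with no overlap of the CX3CR1high samples and the rest.

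The last list held 20 genes that are induced by TNF, take part in its shedding or carry TNF in their full name. Of these, Bcl2a1a rose in CX3CR1high cells, by 2.15 against CX3CR1low (limma adjusted p = 0.00512) and by 1.315 against CX3CR1int cells (0.0421). This survival gene of the Bcl2 family, one of a cluster of near-identical copies that a probe set may not tell apart, was at 10.46 and 10.30 in CX3CR1high, 9.13 and 9.0 in CX3CR1int and 8.06 and 8.40 in CX3CR1low samples. With the replicate block the interferon-induced chemokine gene Cxcl10 was also called higher against CX3CR1low cells (1.07, adjusted p = 0.0239, and 0.181 without the block). The hyaluronan-binding matrix gene Tnfaip6 was called lower in the same fit (-1.26, adjusted p = 0.0236, and 0.0915 without the block). Cxcl10 was at 9.29 and 9.8 in CX3CR1high, 8.52 and 8.89 in CX3CR1int and 8.17 and 8.78 in CX3CR1low samples. Tnfaip6 was at 6.24 and 6.45 in CX3CR1high, 6.2 and 6.69 in CX3CR1int and 7.34 and 7.87 in CX3CR1low samples, so that only the CX3CR1low samples stood apart. In direction 11 of the list were higher and 9 lower in CX3CR1high than in CX3CR1low cells. At an unadjusted p below 0.05, 4 were higher and 3 lower, against 9.65% of all genes in either direction. Over all genes 0.399% were called against CX3CR1low cells, 0.992% with the replicate block, and 0.142% against CX3CR1int cells. The TNF-cleaving protease gene Adam17 ranged from 8.72 to 9.34 and was not called.

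**Figure D5:**
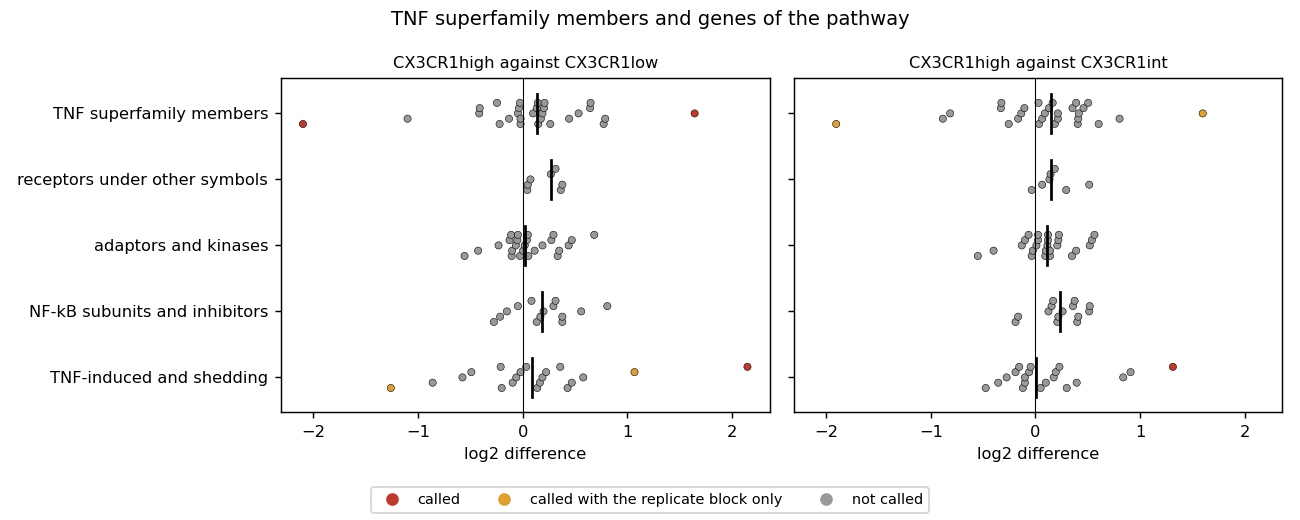
Log2 difference (x axis) of each tested gene in the superfamily and 4 pathway lists (y axis), for CX3CR1high against CX3CR1low and CX3CR1high against CX3CR1int cells, with a bar at the median of each list. Called genes are red and those called with the replicate block only are amber; the medians lie between 0.003 and 0.27, and the points farthest out are Tnfrsf17, Tnfsf18 and Bcl2a1a.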

How the data were processed

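The authors' deposited values are log2 signals of an Affymetrix array. The submitters' processing notes name RMA and Affymetrix Expression Console 1.4, and the build was not given in the sources used here. The RNA was labelled after whole-transcriptome amplification, per the labels' protocols. Of 34390 probe sets, 23521 carried 1 gene symbol, 1814 several and 9055 none, and those with 1 symbol were used. The brightest probe set stood for each of 22180 genes, and the 15529 genes at or above the 30th percentile of mean signal were tested. A linear model with a mean per subset was fitted by limma 3.58.1 (R 4.3.3) with an intensity trend, and the p-values of all these genes were adjusted together by Benjamini-Hochberg. The fit was tested on simulated data with independent noise and no difference shared by replicates. The samples here do share such differences, so that test gives no error rate for them. Same-numbered replicates deviated together in all 3 pairs of subsets (correlations 0.136, 0.178 and 0.146 across genes). The replicate number was therefore taken to pair samples in the replicate block, while the main model did not pair them. The labels do not tie a replicate number to a litter, and whether same-numbered samples came from the same mice was not known. Values by sample and the difference with its error were given for members called with or without the block, the 6 of lowest p in each pair of subsets, Tnf, Tnfrsf1a and Tnfrsf1b, and of each pathway list for genes called and up to 3 of lowest p. Other genes of the lists were named as examples. Alternatives covered the dim filter, normalization, centring, trend, probe set choice, block, subsets fitted and each sample left out. The members and lists were chosen with earlier results of these data known.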

Additional observations from a re-analysis of the deposited data

How the results depend on the processing

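The 2 members called between CX3CR1high and CX3CR1low cells were both called again with the dim filter at the 50th percentile or at the olfactory receptor level, quantile normalization, no intensity trend, the mean of a gene's probe sets or the replicate block. Without the dim filter 0 were called, as with every probe set tested on its own, with adjusted p-values of 0.0524 and 0.0787 for Tnfrsf17 and 0.0621 and 0.0851 for Tnfsf18. Both settings test more features. With arrays centred on their medians 1 was called (Tnfrsf17), as when only the 2 subsets compared were fitted (Tnfsf18), and leaving out 1 sample gave 0 to 1. Against CX3CR1int cells the count was 2 with the replicate block and 1 with only the 2 subsets compared, and 0 to 1 on leaving out 1 sample. It was 0 in every setting between CX3CR1int and CX3CR1low cells. The F test called 1 member with either stricter dim filter, quantile normalization or the mean of probe sets, 2 with the replicate block, and 0 to 1 without 1 sample.

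Counts over all genes moved more. Between CX3CR1high and CX3CR1low cells the 62 calls became 26 without the dim filter, 23 with every probe set, 154 with the replicate block, 39 with only the 2 subsets and 0 to 39 without 1 sample. Against CX3CR1int cells the 22 became 0 without the dim filter, 4 with quantile normalization, 0 with centred arrays, 4 without the trend, 0 with every probe set, 47 with the replicate block, 14 with only the 2 subsets and 0 to 17 without 1 sample. The single call between CX3CR1int and CX3CR1low cells became 0 without the dim filter, with centred arrays, without the trend, with every probe set, with the replicate block, with only the 2 subsets, and without any single sample. Settings without the dim filter or with every probe set test more features, and those without a sample or subset rest on fewer samples; other causes were not tested.

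Signs turned only for differences that were not called, and only on leaving out 1 sample. Between CX3CR1high and CX3CR1low cells the ranges were -0.155 to 0.455 for Tnf and -0.35 to 0.09 for Tnfrsf1a. For Tnfrsf1a it was -0.39 to 0.06 between CX3CR1high and CX3CR1int cells. Between CX3CR1int and CX3CR1low cells it was -0.19 to 0.26 for Tnfrsf1a, -0.025 to 0.385 for Tnfrsf1b, -0.04 to 0.85 for Tnfrsf26, -0.645 to 0.255 for Tnfrsf17 and -0.305 to 0.395 for Tnfsf18. The replicate block changed no other call of a member than those given.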
